A study of Mus musculus with 9 samples.

Results

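The nuclear-encoded subunits of the respiratory chain and of ATP synthase were taken as the protein-coding rows whose symbols name a subunit of complex I (Nduf), complex II (Sdh), complex III (Uqcr), complex IV (Cox4 to Cox8) or complex V (Atp5), which gave 85 of the 54532 rows of the deposited table. They were measured by poly(A) RNA sequencing in livers of male wild-type C57BL/6J mice, with 3 libraries per group. One group received CDAA-HFD, a high-fat diet without choline and with amino acids in place of protein, which produces steatohepatitis and fibrosis in mice, and 326E at 30 mg/kg for 6 weeks. A second group received CDAA-HFD and the vehicle of 326E, and the third received normal chow and vehicle. The compound 326E is named in the title of the series as an enedioic acid analogue with ATP citrate lyase and PPARα as its targets. No library in the chow arm received 326E, so its effect without the diet was not measured. Nothing in the labels ties libraries to separate animals, and the p-values therefore measure only the spread between these samples, which may be technical.

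Complex I oxidises NADH and complex II oxidises succinate, and both pass electrons to ubiquinone. Complex III carries them on to cytochrome c and complex IV to oxygen, while ATP synthase, complex V, makes ATP from the proton gradient that complexes I, III and IV build. Most subunits are encoded in the nucleus, made in the cytosol and imported, and a few are encoded in mitochondrial DNA, so both genomes contribute to every complex except complex II. Liver mitochondria use this chain to dispose of the electrons of fatty acid oxidation, and several complex IV subunits have isoforms that differ between liver, muscle, lung and testis.

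Of the 85 members, 35 belong to complex I, 4 to complex II, 8 to complex III, 20 to complex IV and 18 to complex V. Ndufa4 and Ndufa4l2, named for complex I, were placed with complex IV, where the Ndufa4 protein was later found. At least 0.5 FPKM (fragments per kilobase of gene and per fixed number of reads of the library) in at least 3 of the 9 libraries was required for testing, and 79 members met this, with 35, 4, 8, 15 and 17 in complexes I to V. The 6 that did not were a second, readthrough row of Atp5o and the complex IV isoforms Cox4i2 (lung and hypoxia), Cox6a2 and Cox8b (heart and muscle), and Cox7b2 and Cox8c (testis). Cox7b2, Cox8c and the second Atp5o row had no read in any library. Cox6a2 reached 0.895 FPKM in 326E replicate 2 and 0.868 FPKM in vehicle replicate 2, and Cox4i2 reached at most 0.368 FPKM, in vehicle replicate 3. Among the tested members the mean level in chow livers ran from 438 ± 25.7 FPKM for Cox6a1 (SD, n = 3) down to 0.0232 ± 0.0402 FPKM for Cox6b2.

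Assigned reads ran from 13275888 to 17058316 over the libraries. Values were compared as differences of log2(FPKM+1) with limma over all 13737 tested genes, and a gene was called at a Benjamini-Hochberg adjusted p under 0.05 over all of them. The libraries had been scaled to each other before deposit, and the scaling bears on every count below. With values scaled instead to total assigned reads, the median difference of all genes moved to 0.25 between vehicle and chow livers and to 0.23 between 326E and chow livers, against -0.04 and -0.02 as deposited. Of the genes called between vehicle and chow livers, 2859 of 5721 were higher as deposited and 84.1% with total reads, and between 326E and chow livers 53.5% and 86.9%. Between 326E and vehicle livers the share was 43.3% as deposited, 38.4% with total reads and 51.4% with quantile normalization. In 326E against vehicle livers the median of all genes was -0.02 as deposited and -0.04 with total reads.

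The promoter windows of 4 members are shown because these were the genes called between 326E and vehicle livers, as described below. They come from RefSeq on GRCm38.p6, the patch release of mm10, run 5′ to 3′ on the gene's strand from 250 bases before to 50 bases after the annotated start, and have motif matches in capitals. Cox6b2 is at chr7:4753045-4753344, Atp5g3 at chr2:73911277-73911576, Ndufb11 at chrX:20617570-20617869 and Ndufa10 at chr1:92473709-92474008, each on the minus strand. In the Cox6b2 window the capitals mark 3 CCAAT boxes, read as CCAAT or, on the other strand, ATTGG. In Atp5g3 they mark 1 CCAAT box and TGACCTTGA, the reverse of the estrogen-related receptor motif TCAAGGTCA, and in Ndufb11 they mark 4 CCAAT boxes. The Ndufa10 window held none of the motifs searched.
Cox6b2: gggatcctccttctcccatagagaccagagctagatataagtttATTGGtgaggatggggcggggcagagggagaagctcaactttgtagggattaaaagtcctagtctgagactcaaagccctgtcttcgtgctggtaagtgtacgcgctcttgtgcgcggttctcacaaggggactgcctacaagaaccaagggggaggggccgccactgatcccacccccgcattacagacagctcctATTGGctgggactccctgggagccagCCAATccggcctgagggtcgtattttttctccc
Atp5g3: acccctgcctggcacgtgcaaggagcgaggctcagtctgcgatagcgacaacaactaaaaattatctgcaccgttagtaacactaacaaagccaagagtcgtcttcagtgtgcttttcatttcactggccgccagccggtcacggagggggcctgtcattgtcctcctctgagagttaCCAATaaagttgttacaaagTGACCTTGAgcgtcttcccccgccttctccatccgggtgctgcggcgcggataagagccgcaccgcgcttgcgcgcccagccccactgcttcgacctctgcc
Ndufb11: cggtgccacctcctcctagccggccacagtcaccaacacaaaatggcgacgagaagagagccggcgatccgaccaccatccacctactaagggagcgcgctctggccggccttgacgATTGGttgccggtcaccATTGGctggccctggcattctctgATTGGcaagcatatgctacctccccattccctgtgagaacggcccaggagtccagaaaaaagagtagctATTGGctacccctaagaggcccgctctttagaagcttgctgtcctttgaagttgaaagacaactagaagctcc
Ndufa10: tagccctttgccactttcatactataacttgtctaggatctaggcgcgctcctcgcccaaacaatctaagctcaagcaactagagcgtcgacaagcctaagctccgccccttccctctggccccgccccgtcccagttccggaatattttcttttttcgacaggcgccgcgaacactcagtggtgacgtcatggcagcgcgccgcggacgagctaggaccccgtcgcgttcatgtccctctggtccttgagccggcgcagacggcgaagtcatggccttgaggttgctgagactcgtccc

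Windows were found for 66 of the 84 member symbols and for 27025 genes in all. Motifs were searched as exact letters on both strands, and a gene with several windows was counted 1 time, if any of them held the motif. The NRF1 core GCGCATGC was found for 15.2% of the members and 3.05% of all genes, including Cox6a1, Sdhb, Uqcrc1 and Ndufa6. CCGGAAG, an ETS motif that GABPA binds, was found for 24.2% and 9.93%, and the YY1 motif, AAG followed directly by ATGGCGG, for 7.58% and 0.995%. The estrogen-related receptor motif was found for 3.03% of the members, Atp5g3 and Sdhd, and 0.466% of all genes. The PPAR direct repeat, AGGTCA written 2 times with 1 base of any kind between, was found for 0 of the 66 members and 0.0481% of all genes, and CCAAT for 43.9% and 41.1%. The estrogen-related receptor and PPAR motifs share AGGTCA, and no motif contains another. A match is no proof of a site, and a missing match says only that these letters are not in these 300 bases.

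As deposited, the summed level of the members was lower in vehicle than in chow livers in each of the 5 complexes. In 326E livers the mean lay between these, above vehicle without overlap in complexes I, III, IV and V. Complex I subunits summed to 1189, 1019 and 1140 FPKM in 326E livers, to 893, 844 and 1013 FPKM in vehicle livers and to 1395, 1506 and 1334 FPKM in chow livers. No 2 groups overlapped. Complex II stood at 281, 282 and 341 FPKM in 326E livers and at 299, 247 and 298 FPKM in vehicle livers, which overlapped, and at 422, 419 and 432 FPKM in chow livers, above both. Complex III averaged 727 ± 54.9 FPKM in 326E, 578 ± 71.7 FPKM in vehicle and 890 ± 40.2 FPKM in chow livers (SD, n = 3 each). The same order held for complex IV, with 1559 ± 119, 1300 ± 102 and 1760 ± 56.0 FPKM in 326E, vehicle and chow livers, and for complex V, with 1310 ± 75.6 FPKM in 326E, 1099 ± 93.0 FPKM in vehicle and 1575 ± 42.6 FPKM in chow livers.

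Over all members the 326E mean was 1.20 times the vehicle mean, the vehicle mean 0.689 times the chow mean and the 326E mean 0.827 times the chow mean. In none of these pairs did the groups overlap, and the two-sided exact permutation test gave p = 0.1, the smallest value that 3 against 3 libraries allow. For complex II alone the ratio of 326E to vehicle was 1.07 (exact permutation p = 0.6). As a share of assigned reads, which does not use the deposited scaling, the members took 0.988 ± 0.0513% in 326E, 0.855 ± 0.0220% in vehicle and 0.939 ± 0.0371% in chow livers. On this scale vehicle was 0.911 times chow and 326E 1.16 times vehicle, both without overlap, while 326E and chow overlapped at a ratio of 1.05 (exact permutation p = 0.4). In bulk liver, fewer cells of a type and less RNA per cell cannot be told apart.

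**Figure D1:**
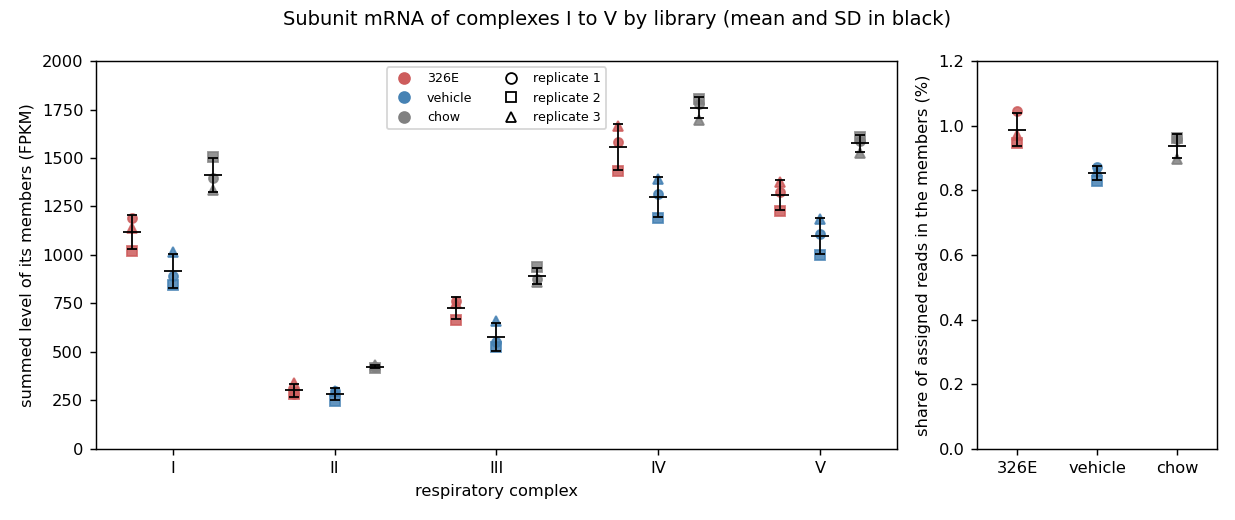
Left, summed FPKM of the members of complexes I to V in each library of the 326E, vehicle and chow groups, with mean and SD in black; right, the share of assigned reads that fell in the members. Vehicle libraries are the lowest group in complexes I, III, IV and V and on the share of reads, and overlap with 326E libraries in complex II.

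The first comparison asks what the diet did to these genes, in vehicle-treated mice. Of the 79 tested members, 57 fell and 0 rose in vehicle against chow livers, where 20.8% of all genes were called lower and 20.8% higher, 41.6% in all. The median difference was -0.55 for the members and -0.04 for all genes. With values scaled to total assigned reads 6 members were lower and 2 higher, beside 961 and 5073 of all 13737 genes. The members' median of -0.16 then stood beside 0.25 for all genes. With quantile normalization 32 were lower and 2 higher, beside 3188 and 2533 of all genes, with a median of -0.31 beside -0.09. In 63 members every vehicle library was below every chow library, against 27.0% of all genes, and in 1, Atp5s, every vehicle library was above, against 24.9%.

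As deposited, the falls were spread over all complexes. They numbered 26 of 35 members of complex I (median -0.55) and 4 of 4 of complex II (-0.59). Complex III had 8 of 8 (-0.66), complex IV 7 of 15 (-0.44) and complex V 12 of 17 (-0.54). With total reads the same medians were -0.18, -0.20, -0.27, -0.04 and -0.15, with 3, 1, 1, 1 and 0 members lower. With quantile normalization 22 of the 35 members of complex I were lower. In complexes II to V 2 of 4, 2 of 8, 3 of 15 and 3 of 17 were, beside 3188 of all 13737 genes. The complex I members called lower as deposited lay in every part of the enzyme. They were 6 of 7 nuclear core subunits of the matrix arm, 6 of 9 of its accessory subunits and 14 of 19 membrane arm members.

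Ndufv1, the core subunit that binds NADH, had 42.2, 30.1 and 35.1 FPKM in vehicle livers and 51.1, 47.1 and 54.0 FPKM in chow livers, without overlap, a difference of -0.50 ± 0.13 (SE; limma, adjusted p = 0.0144). Ndufs8, a core subunit with iron-sulfur clusters, differed by -0.70 ± 0.13 (limma, adjusted p = 0.0029). Ndufs1, a core subunit that also carries iron-sulfur clusters, did not pass, with 13.3 ± 1.08 FPKM in vehicle and 17.3 ± 1.88 FPKM in chow livers. The largest called fall of the complex was that of Ndufa3, an accessory subunit of the membrane arm, with 7.18, 11.9 and 17.5 FPKM in vehicle livers and 21.8, 33.6 and 22.4 FPKM in chow livers (-1.08 ± 0.32, limma adjusted p = 0.0233). Its groups did not overlap, but its vehicle libraries spanned more than 2-fold.

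Complex II, which is also an enzyme of the citric acid cycle, fell in both its catalytic subunits and both its membrane anchors. Sdha, the flavoprotein that oxidises succinate, had 74.7, 71.6 and 82.2 FPKM in vehicle livers and 120, 114 and 121 FPKM in chow livers. The difference was -0.63 ± 0.10 (limma, adjusted p = 0.000944). Sdhb, the iron-sulfur subunit, differed by -0.53 ± 0.15, and Sdhc and Sdhd, the anchors, by -0.55 ± 0.11 and -0.63 ± 0.14.

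In complex III the 3 core and Rieske members and the 5 smaller ones all fell. Uqcrfs1, the Rieske iron-sulfur protein, averaged 144 ± 9.87 FPKM in vehicle and 221 ± 15.5 FPKM in chow livers (SD, n = 3 each), and Uqcrc1, a core protein, 56.4 ± 6.01 FPKM in vehicle and 77.3 ± 4.79 FPKM in chow livers. The largest fall was that of Uqcr11, a small accessory subunit, with 31.5, 31.5 and 41.0 FPKM in vehicle livers against 59.6, 77.9 and 62.3 FPKM in chow livers (-0.92 ± 0.19, limma adjusted p = 0.00435).

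In complex IV, 7 of the 11 isoforms that liver mainly uses fell, led by Cox7b, an accessory subunit, at 40.7, 50.2 and 64.6 FPKM in vehicle livers against 92.7, 97.7 and 85.4 FPKM in chow livers (-0.84 ± 0.16, limma adjusted p = 0.00313). Cox5a and Cox5b, which sit on the matrix side, fell by 0.53 and 0.66 on the log2 scale, and Ndufa4 by 0.69. Cox4i1, Cox6a1, Cox6b1 and Cox7c did not pass, with differences of -0.39 ± 0.15, -0.34 ± 0.12, -0.64 ± 0.24 and -0.41 ± 0.15. Cox7a2l, an assembly factor of supercomplexes, had 93.5, 90.5 and 92.3 FPKM in vehicle livers and 100, 94.2 and 81.0 FPKM in chow livers, groups that overlapped (0.01 ± 0.11). Ndufa4l2, the hypoxia-induced paralog of Ndufa4, and Cox7a1, the muscle isoform, were at 1.18 ± 0.399 and 0.523 ± 0.111 FPKM in vehicle and 1.25 ± 0.147 and 0.756 ± 0.366 FPKM in chow livers, and did not pass.

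In complex V all 5 subunits of the catalytic head fell as deposited. With quantile normalization Atp5a1 and Atp5b turned to 0.13 and 0.25 without passing, while 3 of the 17 members of the complex were lower. With total reads 0 of the 17 were lower. Atp5b, the beta subunit that holds the catalytic sites, had 240, 204 and 239 FPKM in vehicle livers and 299, 287 and 299 FPKM in chow livers (-0.38 ± 0.11, limma adjusted p = 0.0233), and Atp5a1, the alpha subunit, differed by -0.54 ± 0.13. Atp5c1, the gamma subunit of the rotating shaft, differed by -0.58 ± 0.11, and Atp5e, the epsilon subunit at its foot, by -0.72 ± 0.20, the largest called fall of the complex. Of the 3 genes for the c subunit of the rotor ring, which encode the same mature protein, Atp5g3 fell (-0.64 ± 0.11), while Atp5g1 and Atp5g2 did not pass (-0.45 ± 0.17 and -0.46 ± 0.18). Atp5k, subunit e of the membrane part, had the largest difference without passing, -1.35 ± 0.52 (limma, adjusted p = 0.0629), with 4.27, 9.58 and 16.2 FPKM in vehicle livers and 23.4, 37.5 and 16.0 FPKM in chow livers, which overlapped. Atp5s, factor B, stood at 5.01, 5.02 and 4.81 FPKM in vehicle livers and 4.45, 4.05 and 4.02 FPKM in chow livers (0.20 ± 0.11), and did not pass.

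Leaving out each library in turn gave between 44 and 61 falls and 0 rises, and 41 of the 57 called members passed in all 9 of these fits. The other 16 lost their call without at least 1 library, Ndufa3, Sdhb, Atp5b and Atp5e among them.

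**Figure D2:**
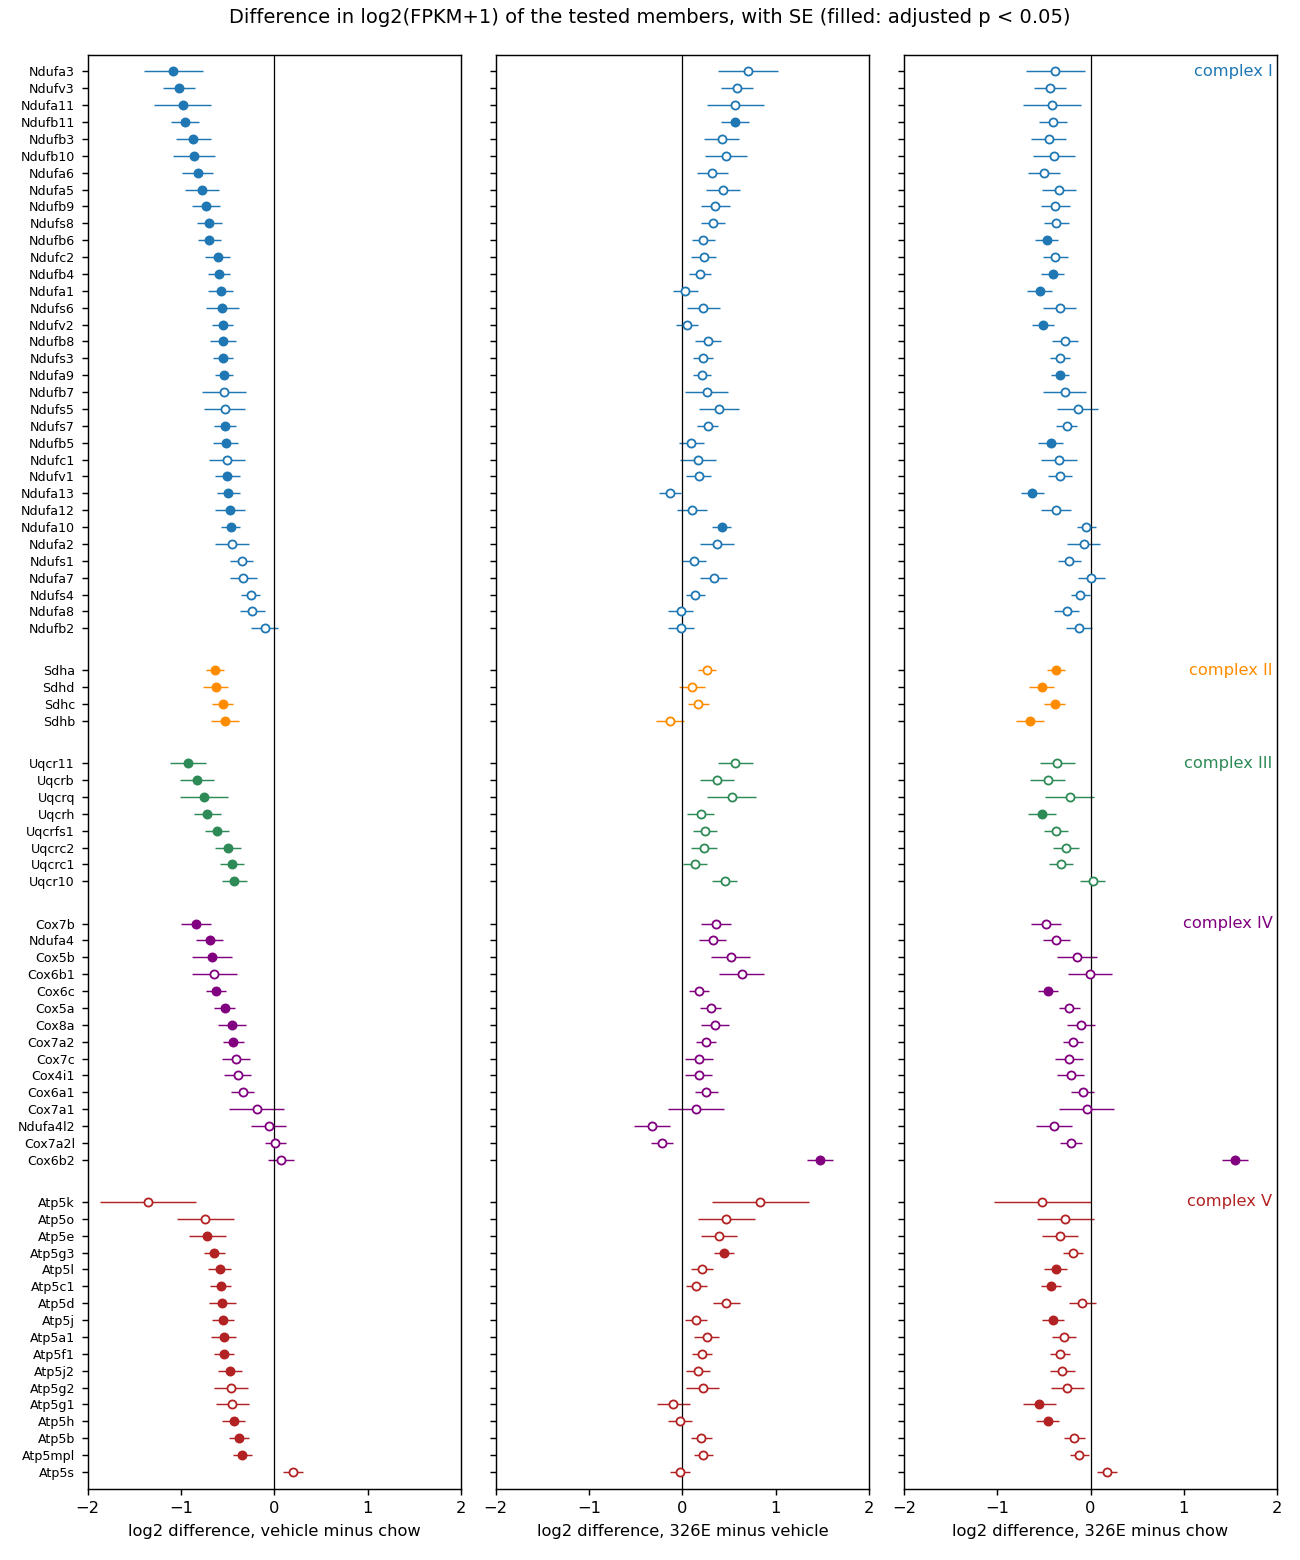
Difference in log2(FPKM+1) with its standard error for the tested members but 1, in vehicle minus chow, 326E minus vehicle and 326E minus chow, coloured by complex and sorted within it by the first comparison; filled points passed at an adjusted p under 0.05. All filled points in the first panel are left of 0, and the second panel has 4 filled points, all right of 0. The panels share groups of libraries, so their points are not independent of each other.

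The second comparison asks what 326E did on the diet. Of the 79 tested members, 4 rose and 0 fell in 326E against vehicle livers, a share of 5.06% beside 4.96% of all genes called higher and 6.5% called lower, 11.5% in all. The share of members called higher was thus close to that of all genes, and this count of rises says nothing particular of the members. Their median was 0.23, against -0.02 for all genes, and 0.20 against -0.04 with total reads and 0.21 against 0.01 with quantile normalization. In 23 members every 326E library was above every vehicle library, where 14.8% of all genes were, and in 1, Cox7a2l, every 326E library was below, where 18.2% were. By complex the medians were 0.26, 0.14, 0.31, 0.26 and 0.21 for complexes I to V, each above 0 under the deposited, total-read and quantile scalings. Unadjusted, 21 of 79 members had a p under 0.05, as did 3854 of all 13737 genes.

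The largest difference was that of Cox6b2 (ENSMUSG00000051811, chromosome 7, 4751792 to 4753094 on mm10, minus strand), the testis isoform of the complex IV subunit that faces the intermembrane space. It had 1.48, 2.50 and 2.07 FPKM in 326E livers, from 29, 50 and 35 reads, against 0, 0.178 and 0.0524 FPKM in vehicle livers, from 0, 4 and 1 reads. Chow livers had 0, 0.0697 and 0 FPKM, a single read in all. The 326E libraries lay far above the others without overlap. The difference from vehicle was 1.48 ± 0.14 and from chow 1.55 ± 0.14 (limma, adjusted p = 0.00103 and 0.000147). Cox6b2 passed the filter on low values only through the 326E libraries and so had to differ. Without that filter the difference from vehicle had an adjusted p of 0.00345 in limma. Its size depends on the pseudocount, being 0.46 with 5, 3.68 with 0.1 and 4.67 in voom on the reads.

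Against its paralog Cox6b1, the isoform of most tissues, Cox6b2 stayed a minor part, at 1.70 ± 0.629% of the FPKM of the pair in 326E livers, 0.0900 ± 0.116% in vehicle and 0.0160 ± 0.0278% in chow livers (SD, n = 3 each). Cox6b1 itself had 148, 112 and 106 FPKM in 326E livers and 54.6, 80.4 and 105 FPKM in vehicle livers, which did not overlap but did not pass (0.63 ± 0.24, limma adjusted p = 0.12). No other gene of the table overlaps Cox6b2. The 3′ end of its neighbour on the same strand, Fam71e2, lies 132 bases away, and Fam71e2 had no read in any library, and Kmt5c, 4278 bases away on the other strand, had 1.64 to 2.53 FPKM in 326E and 1.45 to 2.29 FPKM in vehicle livers. The other testis isoforms, Cox7b2 and Cox8c, had no reads.

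Ndufb11 (ENSMUSG00000031059, chromosome X, 20615326 to 20617619, minus strand), an accessory subunit of the membrane arm of complex I, had 96.3, 77.9 and 89.8 FPKM in 326E livers, 48.9, 59.1 and 71.4 FPKM in vehicle livers and 117, 124 and 108 FPKM in chow livers. The 326E libraries lay above all vehicle libraries and below all chow libraries. The difference from vehicle was 0.56 ± 0.15 (limma, adjusted p = 0.0428). The gene overlaps Rbm10 on the other strand, and since the strand setting of the counting is not given, reads of the pair cannot be told apart. Ndufa10 (ENSMUSG00000026260, chromosome 1, 92439010 to 92473860, minus strand), an accessory subunit of the same arm, had 37.0, 37.0 and 42.5 FPKM in 326E livers, 27.5, 27.7 and 31.1 FPKM in vehicle livers and 43.6, 37.9 and 38.7 FPKM in chow livers. It lay above vehicle without overlap and overlapped chow (0.42 ± 0.10 and -0.04 ± 0.10, limma adjusted p = 0.031 and 0.783).

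Atp5g3 (ENSMUSG00000018770, chromosome 2, 73908447 to 73911326, minus strand) had 125, 112 and 114 FPKM in 326E livers, 83.8, 77.3 and 95.6 FPKM in vehicle livers and 136, 138 and 127 FPKM in chow livers. The 326E libraries were above vehicle by 0.45 ± 0.11 (limma, adjusted p = 0.031) and below every chow library, without passing there (-0.19 ± 0.11). It supplied 66.9 ± 0.539% of the c subunit FPKM in 326E livers, 61.3 ± 1.75% in vehicle and 64.4 ± 1.38% in chow livers. Atp5g1 gave 9.12 ± 1.49% in 326E, 12.5 ± 3.67% in vehicle and 11.4 ± 0.760% in chow livers, and Atp5g2 the remainder. Atp5g1 and Atp5g2 did not pass between 326E and vehicle livers (-0.10 ± 0.17 and 0.22 ± 0.18).

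The calls of Ndufb11, Ndufa10 and Atp5g3 rest on few libraries. Ndufb11 lost its call when any library but vehicle replicate 3 was left out (adjusted p up to 0.117 in limma, difference 0.43 to 0.69). Ndufa10 lost it without any of the 3 326E libraries or vehicle replicates 1 or 2, and Atp5g3 without any of these or chow replicate 1, with limma adjusted p up to 0.0971 and 0.0871. Without vehicle replicate 3, 8 members rose. Ndufb11, Ndufa10 and Atp5g3 were also the members called lower in vehicle than in chow livers and higher in 326E than in vehicle livers. Both comparisons use the vehicle libraries, so the pair of calls is not independent.

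**Figure D3:**
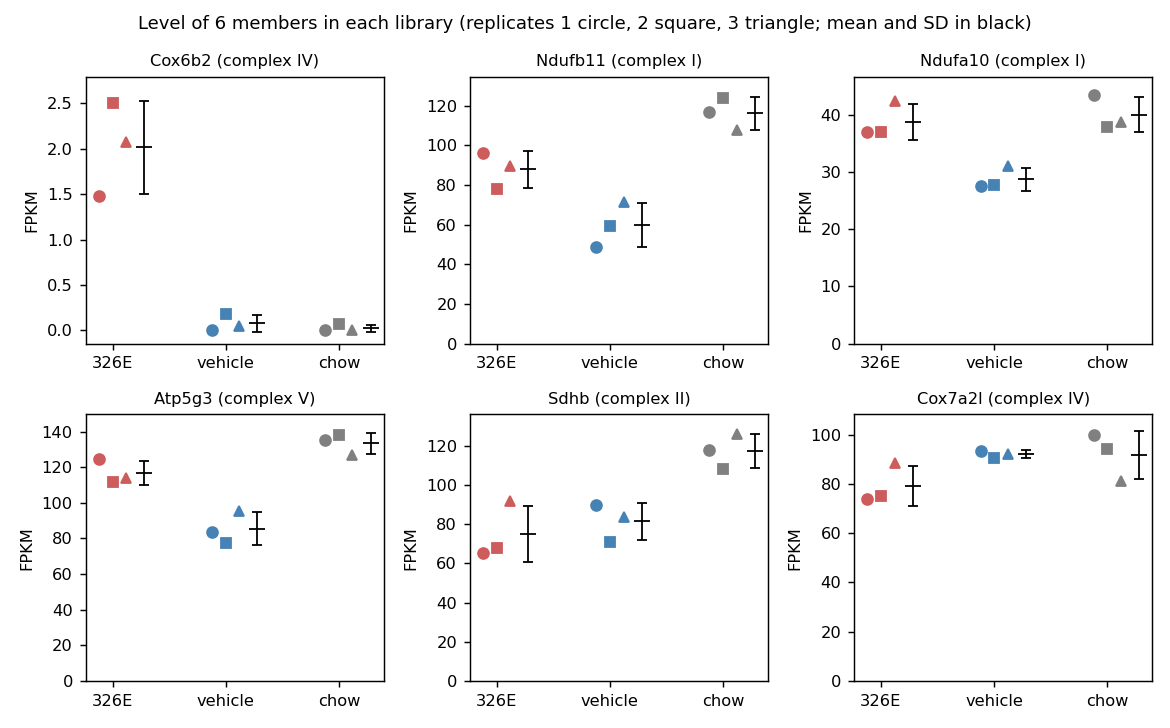
FPKM of Cox6b2, Ndufb11, Ndufa10, Atp5g3, Sdhb and Cox7a2l in each library of the 326E, vehicle and chow groups, with mean and SD in black beside them. Cox6b2 is near 0 outside the 326E group, Ndufb11, Ndufa10 and Atp5g3 have their lowest values in vehicle, Sdhb overlaps between 326E and vehicle, and the 3 326E libraries of Cox7a2l lie below its vehicle libraries.

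Core subunits did not pass between 326E and vehicle livers. In complex I their differences ran from 0.05 ± 0.12 for Ndufv2 to 0.33 ± 0.13 for Ndufs8, which had 67.5, 56.8 and 69.0 FPKM in 326E livers and 56.4, 45.1 and 52.0 FPKM in vehicle livers, without overlap (limma, adjusted p = 0.143). Sdha had 90.0, 87.1 and 97.5 FPKM in 326E livers, above the vehicle libraries (0.26 ± 0.10), whereas Sdhb had 65.5, 68.0 and 91.6 FPKM, overlapping vehicle at 89.6, 71.1 and 83.8 FPKM (-0.13 ± 0.15). Uqcrfs1 and Uqcrc1 differed by 0.24 ± 0.13 and 0.14 ± 0.13, and Uqcr10, a small subunit of complex III, by 0.45 ± 0.14 without overlap (limma, adjusted p = 0.0643). In complex IV, Cox4i1, Cox5a and Cox5b differed by 0.17 ± 0.15, 0.30 ± 0.11 and 0.52 ± 0.21, and Cox6a1, Cox7a2 and Cox8a by 0.26 ± 0.12, 0.25 ± 0.11 and 0.35 ± 0.15. Atp5a1, Atp5b and Atp5c1 differed by 0.26 ± 0.13, 0.20 ± 0.11 and 0.15 ± 0.11. Cox7a2l stood at 73.7, 75.1 and 88.7 FPKM in 326E livers, below every vehicle library, without passing (-0.22 ± 0.11). Ndufa4, Ndufa4l2 and Cox7a1 differed by 0.32 ± 0.15, -0.33 ± 0.19 and 0.15 ± 0.30, and Cox7a1 had 1.80 FPKM in 326E replicate 1 against 0.517 and 0.122 FPKM in the other 326E libraries.

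The third comparison sets 326E on the diet against chow without it. Of the 79 members, 18 fell and 1, Cox6b2, rose, where 12.5% of all genes were called lower and 14.4% higher, 26.8% in all. The median of the members was -0.33, against -0.02 for all genes. With total reads 3 members rose and 0 fell, beside 3945 and 593 of all 13737 genes, with a median of 0.03 beside 0.23. With quantile normalization 4 rose and 2 fell, beside 1654 and 1513 of all genes, with a median of -0.13 beside -0.04. In 41 members every 326E library was below every chow library, against 22.6% of all genes, and in 1, Cox6b2, every 326E library was above, against 22.4%.

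Complex II stood out by its count, 4 of 4 lower, beside 7 of 35 in complex I, 1 of 8 in complex III, 1 of 15 in complex IV and 5 of 17 in complex V, though 0 of 4 passed with total reads or quantile normalization. Whether the complexes differ was not tested. Sdhb had 65.5, 68.0 and 91.6 FPKM in 326E livers, all below 118, 108 and 126 FPKM in chow livers, a difference of -0.65 ± 0.15 (limma, adjusted p = 0.0123). Sdha differed by -0.37 ± 0.10, Sdhc by -0.38 ± 0.11 and Sdhd by -0.53 ± 0.14. In complex I the largest fall was that of Ndufa13, an accessory subunit also known as GRIM-19, with 29.7, 25.3 and 29.2 FPKM in 326E livers, 35.3, 26.1 and 31.6 FPKM in vehicle livers and 42.9, 44.2 and 43.9 FPKM in chow livers (-0.62 ± 0.12 from chow, limma adjusted p = 0.00577). Ndufa13 overlapped between 326E and vehicle livers.

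The largest falls elsewhere were those of Uqcrh, the hinge protein beside cytochrome c1 in complex III (-0.52 ± 0.15), Cox6c in complex IV (-0.45 ± 0.11) and Atp5g1 in complex V (-0.55 ± 0.17). Among core subunits of complex I, Ndufv2 passed (-0.51 ± 0.12), and of Atp5a1, Atp5b and Atp5c1 in complex V, Atp5c1 did (-0.42 ± 0.11). The count of falls dropped to 8 without 326E replicate 1, to 2 without 326E replicate 2, to 4 without chow replicate 1 and to 9 without chow replicate 2. Ndufa13 and Ndufv2 passed in all 9 fits with 1 library left out, as did Cox6b2, which the filter admitted through its high group, and the other 16 members did not.

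The distance of the members from the other genes also depended on the scaling. Relative to the median of all genes, the members' median lay below by 0.51, 0.22 and 0.41 between vehicle and chow livers under the deposited, quantile and total-read scalings. Between 326E and chow livers it lay below by 0.30, 0.08 and 0.20. Between 326E and vehicle livers it lay above by 0.25, 0.20 and 0.24. Between 326E and chow livers, quantile normalization turned the medians of complexes III and IV to 0.00 and 0.10. Total reads turned those of complexes I, III, IV and V to 0.01, 0.02, 0.15 and 0.05, and that of complex II was -0.09.

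**Figure D4:**
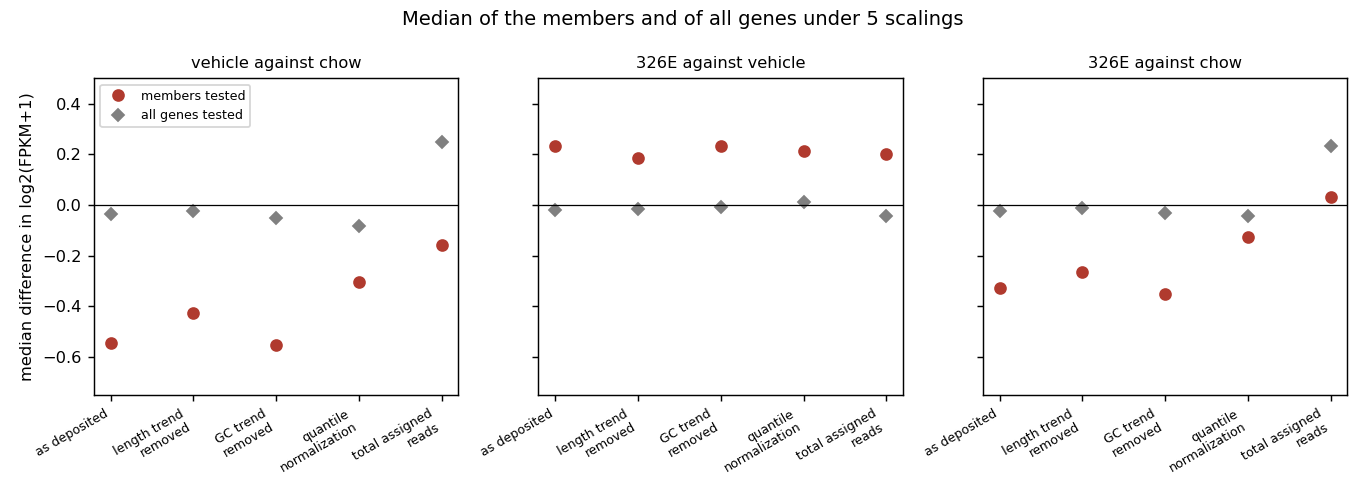
Median difference in log2(FPKM+1) of the 79 members (circles) and of all 13737 tested genes (diamonds) in each comparison, as deposited, with a length trend removed, with a GC trend removed, after quantile normalization and scaled to total assigned reads. The members lie below all genes in both comparisons with chow and above them in 326E against vehicle under each of the 5 scalings, while the median of 326E against chow passes 0 with total reads.

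Replicates differed from each other in a pattern that many members shared. The members varied within groups by a median SD of 0.17 on the log2 scale, as all genes did (0.16). The widest were Atp5k at 0.77, Ndufa3 at 0.47, Ndufa11 at 0.45 and Atp5o at 0.44. Atp5o, the subunit that joins the stalk to the catalytic head, had 22.3, 17.1 and 15.9 FPKM in 326E livers, 7.47, 14.3 and 19.8 FPKM in vehicle livers and 20.8, 28.7 and 18.3 FPKM in chow livers. In Atp5k, Ndufa3, Ndufa11 and Atp5o alike, 326E replicate 1, vehicle replicate 3 and chow replicate 2 were the highest of their groups and vehicle replicate 1 the lowest of its group.

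The 46 members with a transcript under 1000 bases had a median SD of 0.19 and the 33 longer ones of 0.15, and the median transcript length was 875 bases for the members and 2728.5 bases for all tested genes. Across the members, which are not independent, the SD went with transcript length at a Spearman rho of -0.38 and with GC content at 0.14. Vehicle replicate 3 was the highest vehicle library in 49 of 79 members, 62.0%, in 41.5% of 1972 other genes with transcripts under 1000 bases and in 33.6% of all genes. Chow replicate 2 was the highest chow library in 59.5%, 42.5% and 38.2% of these sets, and 326E replicate 2 the lowest 326E library in 62.0%, 38.0% and 29.7%. With a trend on transcript length removed from each library, 48 members fell and 1 rose in vehicle against chow livers, 5 rose and 0 fell in 326E against vehicle livers, and 15 fell and 1 rose in 326E against chow livers. The part of RNA quality in these values was not tested.

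**Figure D5:**
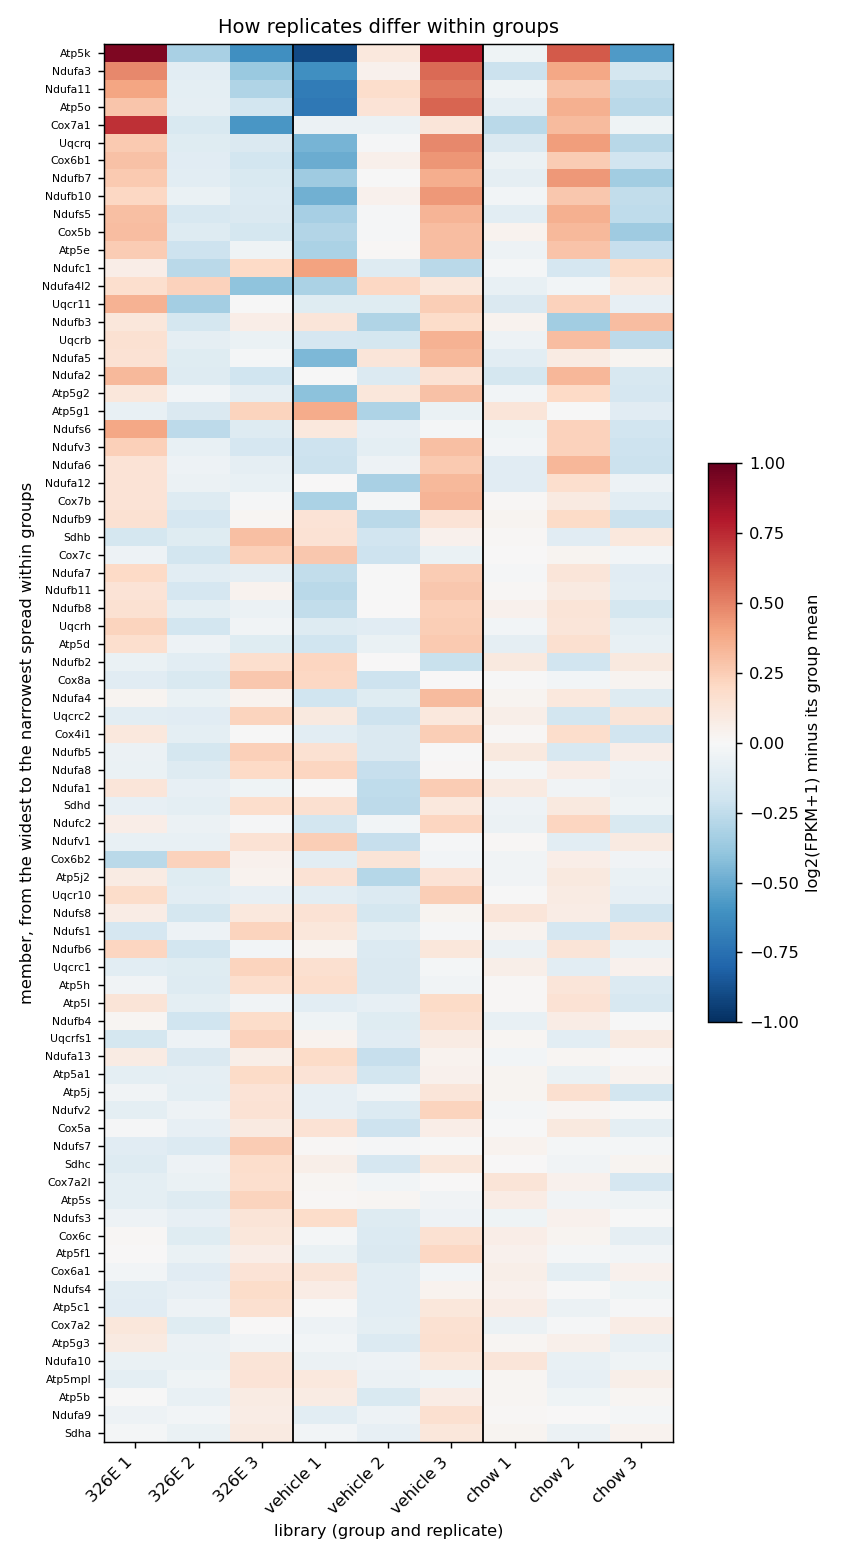
Deviation of each library's log2(FPKM+1) from its group mean for the tested members but 1, sorted from the widest to the narrowest spread within groups. Red is above and blue below the group mean; the top rows share a pattern of high 326E replicate 1, vehicle replicate 3 and chow replicate 2 and low vehicle replicate 1.

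Liver cell markers changed between the same groups. Hepatocyte markers summed to 24990 to 34440 FPKM in 326E, 27270 to 41700 FPKM in vehicle and 41560 to 48020 FPKM in chow livers. Most of each sum was Alb, at means of 20160, 26120 and 31770 FPKM, which was not called in any comparison. Of the 10 markers, 6 fell and 0 rose both in vehicle and in 326E against chow livers. Between 326E and vehicle livers 0 of 10 were called. Pck1 (0.19) and Tat (0.61) lay above chow in vehicle livers, without being called. Macrophage markers summed to 632 to 1100, 1197 to 1815 and 189 to 216 FPKM in 326E, vehicle and chow livers, with 9 of 10 higher in vehicle than in chow and 7 of 10 lower in 326E than in vehicle livers. Stellate cell and myofibroblast markers summed to 161 to 192 FPKM in 326E and 248 to 362 FPKM in vehicle livers. In chow livers their sum was 52.1 to 71.0 FPKM. Of these, 8 of 10 were higher in vehicle than in chow and 5 of 10 lower in 326E than in vehicle livers. Those lower with 326E were the matrix genes Col1a1, Col1a2, Col3a1, Dcn and Lum. Acta2 (0.25), Lrat (0.03), Reln (-0.37), Pdgfrb (-0.21) and Des (-0.15) were not called there. Of all genes, 20.8% were called in each direction between vehicle and chow livers. Between 326E and vehicle livers 6.5% were called lower, and between 326E and chow livers 12.5%. The part of cell composition in the members' differences was not tested. For the muscle isoforms, Myh4 and Mb were at 0 in every library, and all 6 striated muscle markers together summed to at most 0.136 FPKM. Of the 85 members, 37 overlap another gene of the table, 29 of them a gene on the other strand, and several families have pseudogenes in the mouse genome. How reads with several matches were counted is not given, so levels of single members carry that uncertainty.

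The other genes of the pathway were taken from lists chosen with earlier results of these data known. The 13 protein-coding genes of the mitochondrial genome encode the remaining subunits. Between vehicle and chow livers 6 of 13 fell and 0 rose, beside 20.8% of all genes called in each direction. The median was -0.68, beside -0.04 for all genes. With total reads or quantile normalization 0 passed. The medians were then -0.28 and 0.11, beside 0.25 and -0.09 for all genes. The called genes with the largest falls were mt-Atp6, a complex V subunit (-1.59 ± 0.50, limma adjusted p = 0.03), and mt-Nd2, a complex I subunit (-0.87 ± 0.31). Between 326E and vehicle livers 0 of 13 were called by limma, with a median of 0.33 and 3 at an unadjusted p under 0.05. The mitochondrial genome took 5.99% to 7.31% of assigned reads in 326E, 5.61% to 5.82% in vehicle and 5.94% to 8.46% in chow livers.

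Assembly factors build the complexes without being part of them. In vehicle against chow livers 11 of 19 fell for complex I (median -0.44) and 9 of 21 for complex IV (-0.34). Of all genes, 20.8% were called lower, and their median was -0.04. With total reads 3 of 19 and 2 of 21 factors fell, and 0 and 1 rose. Of all 13737 genes, 961 fell and 5073 rose in that scaling. Of the smaller lists, 2 of 4 factors for complex II, 2 of 6 for complex III and 1 of 5 for ATP synthase fell. The share for ATP synthase was near that of all genes. With total reads 0, 1 and 1 of these smaller lists fell while 0, 1 and 1 rose. Ndufaf1, which assembles the membrane arm of complex I, had 11.5, 10.8 and 10.8 FPKM in vehicle livers and 22.9, 19.5 and 21.0 FPKM in chow livers (-0.88 ± 0.10), and Taco1, a translational activator of the Cox1 message, averaged 6.37 ± 1.21 FPKM in vehicle and 13.5 ± 0.696 FPKM in chow livers (-0.99 ± 0.12). Fmc1, an assembly factor of ATP synthase, differed by -0.86 ± 0.10, Bcs1l, which inserts the Rieske protein, by -0.75 ± 0.11, and Sdhaf4, for Sdha, by -0.75 ± 0.22.

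Between 326E and vehicle livers, 4 of 21 complex IV factors rose and 0 fell, beside 4.96% of all genes called higher. These were Taco1, at 10.7 ± 0.363 FPKM in 326E and 6.37 ± 1.21 FPKM in vehicle livers (0.68 ± 0.12, limma adjusted p = 0.0107), Surf1 (0.31 ± 0.08), Cox19, which binds copper (0.41 ± 0.11), and Cox15, for heme a (0.38 ± 0.10). With total reads 1 of the 21 rose and with quantile normalization 7, beside 582 and 976 of all 13737 genes. Of the complex I factors 1 of 19 rose, Tmem186 (0.56 ± 0.10, limma adjusted p = 0.0095), and of those for complexes II, III and V 0 of 4, 0 of 6 and 0 of 5 were called by limma, with 0, 3 and 0 at an unadjusted p under 0.05. Atpif1, the inhibitor of ATP synthase, was at 6.57 ± 1.33 FPKM in 326E, 6.44 ± 2.01 FPKM in vehicle and 3.98 ± 0.923 FPKM in chow livers, and did not pass in any comparison.

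The carriers that feed or join the complexes were taken as 20 genes for ubiquinone synthesis, cytochrome c and the electron-transferring flavoprotein. Of these 4 rose and 0 fell in 326E against vehicle livers, beside 4.96% of all genes called higher. With total reads 5 rose and with quantile normalization 6, beside 582 and 976 of all 13737 genes, and 0 of the 20 fell in either. Etfdh, which passes electrons of fatty acid oxidation to ubiquinone, had a mean of 55.5 ± 4.67 FPKM in 326E, 25.1 ± 1.87 FPKM in vehicle and 37.4 ± 2.70 FPKM in chow livers, a difference of 1.11 ± 0.10 from vehicle and 0.56 ± 0.10 from chow (limma, adjusted p = 0.00102 and 0.00464). Coq8a, needed for ubiquinone synthesis, stood at 14.4 ± 1.12 FPKM in 326E, 7.13 ± 1.06 FPKM in vehicle and 55.5 ± 10.2 FPKM in chow livers, 0.92 ± 0.14 from vehicle. Coq9 and Coq5, also of that synthesis, differed by 0.53 ± 0.08 and 0.35 ± 0.10 between 326E and vehicle livers. Between vehicle and chow livers 8 of the 20 fell and 1 rose, beside 20.8% of all genes called in each direction. The falls were led by Coq8a (-2.79 ± 0.14), and the rise was that of Coq10b (1.23 ± 0.31). With total reads 2 fell and 2 rose, beside 961 and 5073 of all 13737 genes. Cyc1, the cytochrome c1 subunit of complex III that the symbol rule leaves out, differed by 0.35 ± 0.11 between 326E and vehicle livers without passing and by -0.71 ± 0.11 between vehicle and chow livers, and Cycs, cytochrome c, passed in no comparison.

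Of 19 regulators of mitochondrial biogenesis, 10 fell and 2 rose in vehicle against chow livers, beside 20.8% of all genes called in each direction. With total reads 2 fell and 2 rose, beside 961 and 5073 of all 13737 genes. With quantile normalization 8 fell and 0 rose, beside 3188 and 2533 of all genes. In 326E against vehicle livers 2 rose and 1 fell, beside 4.96% of all genes called higher and 6.5% called lower. With total reads 1 rose and 1 fell, and with quantile normalization 2 rose and 0 fell. Counts this small say nothing particular of these regulators. Gabpa, the ETS factor whose motif is counted above, fell to 9.25 ± 0.418 FPKM in vehicle livers, against 15.4 ± 1.23 FPKM in chow livers (-0.68 ± 0.10), and Tfam, the packaging factor of mitochondrial DNA, differed by -0.47 ± 0.16. Gabpa overlaps Atp5j on the other strand, so their reads cannot be told apart. Ppargc1a, a coactivator of mitochondrial genes, rose by 0.55 ± 0.18 in vehicle against chow livers and fell by 0.64 in 326E against vehicle livers, with means of 2.33 ± 0.331 FPKM in 326E, 4.25 ± 0.965 FPKM in vehicle and 2.59 ± 0.671 FPKM in chow livers (limma, adjusted p = 0.0346 and 0.049). Neither call of Ppargc1a held with quantile normalization. Both comparisons use the vehicle libraries, so its pair of calls is not independent. Ppargc1b differed by -0.53 ± 0.18 between vehicle and chow livers and did not pass between 326E and vehicle livers (0.37 ± 0.18). Twnk, the helicase of mitochondrial DNA, and Mterf4, which acts in mitochondrial ribosome assembly, rose in 326E against vehicle livers by 0.60 ± 0.13 and 0.47 ± 0.09. Nrf1 and Esrra, whose motifs are counted above, passed in no comparison, with differences of 0.02 ± 0.08 and 0.02 ± 0.18 between 326E and vehicle livers.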

How the data were processed

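Liver RNA was sequenced in 9 libraries, 3 per group. The authors deposited FPKM per gene for 54532 rows with gene lengths. The submitters' processing notes name HISAT2, featureCounts and mm10; versions, annotation and strand setting are not given in the sources used here. The deposited FPKM times gene length gave whole reads in 100% of values (tolerance 0.01). The library sizes in the FPKM are 0.83 to 1.19 of assigned reads, so depth is known but the values were already scaled between libraries. Titles of all libraries begin with MCD, and the protocol, which names CDAA-HFD and chow, was followed for the groups.

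The test was limma (version 3.58.1, R 4.3.3) with trend, run on log2(FPKM+1), a scale that understates changes of low genes. One fit held all 9 libraries, leaving 6 residual degrees of freedom, over genes that reached 0.5 FPKM in 3 or more libraries. P-values were adjusted by Benjamini-Hochberg over all tested genes within each comparison. Voom on the whole reads called 5709 genes between vehicle and chow, 1860 between 326E and vehicle and 3811 between 326E and chow. Summed levels were compared with exact permutation tests in scipy 1.17.1, and tables and plots used Python 3.11.15, pandas 2.3.3 and matplotlib 3.10.9. The script was tested on simulated data. Transcript length and GC content come from GENCODE vM21 and promoter windows from RefSeq (GRCm38.p6).

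The members, the gene lists, the comparisons and the alternatives were chosen with earlier results of these data known. Named members are those called in 326E against vehicle, the largest called rise and fall per complex and comparison, core subunits and tissue-specific paralogs. Uqcr10, Cox7c, Atp5k, Atp5o, Atp5s, Ndufa11, Sdhc, Sdhd and the genes of other lists were named after their values were seen. Values of some genes are not reported here. Alternatives were pseudocounts of 0.1 and 5, other filters, quantile normalization, total assigned reads, voom, 6 libraries per fit, length and GC trends, a replicate block, and libraries left out.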

Additional observations from a re-analysis of the deposited data

How the results depend on the processing

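With quantile normalization the members called numbered 34 in vehicle against chow and 6 in 326E against chow, and scaled to total assigned reads 8 and 3, against 57 and 19 as reported. Of all genes, quantile normalization called 5721 and 3167 in these comparisons and total reads 6034 and 4538, against 5721 and 3688 as reported. In 326E against vehicle, 4 members were called as reported. With only the 6 libraries of the comparison 1 was called, as with a replicate block and with that block and the length trend removed. In each of these fits it was Cox6b2, which the filter admitted through its high group and so had to differ. With only vehicle replicate 2 kept, the difference of Cox6b2 was 1.34. With the block and the length trend removed 12 were called in 326E against chow. Leaving out 1 library gave 44 to 61 members and 4697 to 5669 of all genes between vehicle and chow, 1 to 8 and 659 to 1623 between 326E and vehicle, and 3 to 23 and 2401 to 3717 between 326E and chow. Of all genes, 1030 were called in 326E against vehicle with no filter, 1037 with the replicate block and 322 with only vehicle replicate 2 kept, against 1574, and 3596 in vehicle against chow with that library alone, which is assumed to vary like the other groups. Same-numbered libraries did not deviate together (9 pairs, correlations -0.24 to 0.02), and the main fit did not pair them. A pairing that leaves no shared deviation could not be seen this way.

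Single members turned sign under a scaling. Listed here are only named members that were called as deposited or under that scaling. Many others turned sign without a call, as the members' median between 326E and chow went from -0.33 as deposited to 0.03 with total reads. In vehicle against chow, quantile normalization gave Atp5a1 0.13, Atp5b 0.25, Cox6a1 0.35 and Cox8a 0.087, and total reads gave Atp5b 0.0195. In 326E against chow, quantile normalization gave Atp5b 0.39, Cox6a1 0.53, Cox8a 0.42 and Sdha 0.0115, and total reads gave Ndufa10 0.31. The cause was not tested. The other values, each of a named gene under an alternative setting, were counted by whether the gene stayed called or uncalled. Between vehicle and chow 135 lost their call, 29 gained one and 1127 stayed as they were. These counts were 70, 2 and 1048 between 326E and vehicle and 44, 30 and 1129 between 326E and chow. A value uncalled in both fits was counted as staying even where its sign turned. Values of low members such as Cox6b2 and Cox7a1 rest on few reads, and 3 libraries a group limit all calls. The GC trend was added after values were seen.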

Other observations

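The 33 other mitochondrial genes listed were those of the citric acid cycle, import, fusion and the outer membrane. In vehicle against chow livers 15 fell and 2 rose, beside 20.8% of all genes called in each direction. Their median was -0.28, beside -0.04 for all genes. With total reads 1 fell and 12 rose, beside 961 and 5073 of all 13737 genes. With quantile normalization 5 fell and 7 rose, beside 3188 and 2533 of all genes. Sucla2, a subunit of succinyl-CoA ligase, averaged 25.7 ± 0.982 FPKM in vehicle and 42.3 ± 1.75 FPKM in chow livers (-0.70 ± 0.10, limma adjusted p = 0.00064). Slc25a4, the muscle-type ADP/ATP carrier, went the other way, at 3.76 ± 0.602 FPKM in 326E, 5.44 ± 0.752 FPKM in vehicle and 1.86 ± 0.217 FPKM in chow livers (1.17 ± 0.13 for vehicle minus chow). Idh3a, the catalytic subunit of NAD-dependent isocitrate dehydrogenase, also rose (0.49 ± 0.10), and its partner Idh3b fell (-0.39 ± 0.12).

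In 326E against vehicle livers 4 of the 33 rose and 0 fell, beside 4.96% of all genes called higher. With total reads 3 rose, beside 582 of all 13737 genes. With quantile normalization 7 rose and 2 fell, beside 976 and 923 of all genes. Suclg2, the GTP-forming partner of succinyl-CoA ligase, averaged 56.2 ± 3.83 FPKM in 326E and 40.9 ± 6.00 FPKM in vehicle livers (0.46 ± 0.12). Mfn2, a fusion protein of the outer membrane, averaged 26.8 ± 3.23 FPKM in 326E and 19.5 ± 0.719 FPKM in vehicle livers (0.43 ± 0.10). Dlst, of the oxoglutarate dehydrogenase complex, averaged 21.7 ± 2.04 FPKM in 326E and 16.4 ± 0.999 FPKM in vehicle livers (0.39 ± 0.10). Limma adjusted p-values were 0.044 for Suclg2, 0.0251 for Mfn2 and 0.0358 for Dlst. Citrate synthase, Cs, did not pass, with 22.5 ± 2.21 FPKM in 326E and 17.7 ± 1.24 FPKM in vehicle livers (0.33 ± 0.10, limma adjusted p = 0.0591).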
